A study of Mus musculus with 9 samples.

Results

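The 10 genes H2-K1, H2-D1, B2m, Tap1, Tap2, Tapbp, Psmb8, Psmb9, Psmb10 and Nlrc5 make up the MHC class I and immunoproteasome set described here. They were chosen by symbol from the 57126 genes of the count table, and all 10 were found and passed the filter on low counts, as did 17555 genes in all. RNA was sequenced from mouse plasmacytoid dendritic cells (pDCs, which make type I interferon in large amounts) that had been sorted by flow cytometry. Before sequencing the cells had been given PBS as a vehicle, DNA of mitochondria (mtDNA) or the same kind of DNA in oxidized form (Ox-mtDNA). Each of the 3 groups had 3 libraries, numbered 1 to 3. The sources used here give no dose, duration, mouse strain, genotype or age for any group, and do not say whether the replicates were separate animals or cultures. P-values therefore measure only the spread between these libraries, which may be technical.

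MHC class I molecules carry short peptides from inside the cell to its surface, where CD8+ T cells read them. A heavy chain (H2-K1 or H2-D1 in the mouse) pairs with the light chain B2m. Peptides are cut by the proteasome, in which the interferon-inducible subunits Psmb8, Psmb9 and Psmb10 can replace the constitutive subunits Psmb5, Psmb6 and Psmb7. They are pumped into the endoplasmic reticulum by the transporter Tap1/Tap2 and loaded with the help of tapasin, the product of Tapbp. Nlrc5 is the transactivator of this programme, which acts on class I promoters through factors bound to X and Y boxes. Interferons raise most of these genes through STAT and IRF factors. In pDCs class I genes are expressed at rest, and the response of pDCs to mitochondrial nucleic acids is studied for its link to interferon and autoimmunity.

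The promoters show which letters known from class I control regions the members have in common, so 4 stretches are given first. They are RefSeq sequences of the build GRCm38.p6, not the GRCm39 build of the counts, and run 5′ to 3′ in the direction of the gene named (of Tap1 for the shared stretch). Of the 10 members, 8 had a promoter window of 300 bases (250 before the start site and 50 after it). Tap2 and Nlrc5 had none. Capitals mark exact matches, on either strand, to the letters TGACG (a CRE core, part of the X2 box), ATTGG (a Y box), GAAANNGAA or GAANNGAAA (IRF type), GGGGATTCC (NF-kB type). GAANNGAAA and GGGGATTCC were added after the windows had been read. A match is a run of letters, not a shown binding site.
H2-K1, chr17:34000335-34000518, minus strand, shown because its levels had the same order as those of H2-D1 in replicates 1 and 2: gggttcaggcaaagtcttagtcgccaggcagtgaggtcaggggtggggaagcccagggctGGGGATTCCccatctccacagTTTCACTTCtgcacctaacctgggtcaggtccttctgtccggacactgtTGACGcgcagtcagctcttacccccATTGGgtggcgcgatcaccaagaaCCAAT
H2-D1, chr17:35262863-35263046, plus strand, aligned with H2-K1 on the CRE core: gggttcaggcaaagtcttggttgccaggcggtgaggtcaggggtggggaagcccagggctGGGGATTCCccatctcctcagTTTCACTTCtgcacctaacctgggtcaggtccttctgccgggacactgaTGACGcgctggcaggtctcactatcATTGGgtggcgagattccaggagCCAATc
B2m, chr2:122147537-122147686, plus strand, shown because it held the same boxes and its level hardly varied: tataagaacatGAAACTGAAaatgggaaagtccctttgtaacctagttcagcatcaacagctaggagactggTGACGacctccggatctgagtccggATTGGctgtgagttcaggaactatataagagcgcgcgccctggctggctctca
Psmb9/Tap1, chr17:34187331-34187555, plus strand, the whole stretch between the start sites of these genes, which are transcribed away from each other: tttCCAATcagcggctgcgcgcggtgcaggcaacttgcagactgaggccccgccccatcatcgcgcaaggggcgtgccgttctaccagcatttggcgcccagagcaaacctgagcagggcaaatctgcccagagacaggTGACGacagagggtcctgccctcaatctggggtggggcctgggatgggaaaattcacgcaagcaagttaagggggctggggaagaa

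The H2-K1 and H2-D1 stretches had 158 of 184 bases in common without a gap, including the NF-kB type match, the IRF type match, the CRE core and the first Y box. A CRE core lay in the windows of 5 members (H2-K1, H2-D1, B2m, Psmb9 and Tap1), where 20.8% of the 32851 promoter windows of RefSeq held one. A Y box lay in those of 6 members (the same 5 and Tapbp), where 37.4% of all windows held one. GAAANNGAA matched only B2m among the members (8.56% of all windows), and GAANNGAAA matched H2-K1 and H2-D1 (7.52%). GGGGATTCC matched H2-K1 and H2-D1 and was found in 0.25% of all windows. Since GAANNGAAA and GGGGATTCC were read from these windows, and the H2-K1 and H2-D1 stretches are near-copies, nothing is drawn from these matches. The letters TTCNNNGAA (STAT type) matched only Psmb8, 97 bases before its start site, against 8.3% of all windows, and GGGANTTCC, another NF-kB type form, matched no member (1.68%). The RefSeq start sites of Psmb9 and Tap1 are set apart by 225 bases that hold 1 CRE core and 1 Y box for both. In the annotation of the counts there is no such gap, and the exons of these genes overlap by 212 bases.

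Total counts were 16029951 to 25378884 per library. Replicate 3 differed from replicates 1 and 2 whatever the treatment. A principal component with 69.5% of the variance separated its 3 libraries, and Xist, a transcript of the silenced X chromosome, was at 818 to 2087 CPM (counts brought to 1 common library size by TMM factors) in them and at 0 to 0.85 CPM elsewhere. By Xist, the cells of replicate 3 had a silenced X chromosome and those of replicates 1 and 2 did not. This difference in the source of the cells cannot be told apart from the other differences of replicate 3. In replicate 3 genes with much G and C were lower in every group. The median difference in log2 CPM between replicate 3 and the mean of replicates 1 and 2 in PBS, mtDNA and Ox-mtDNA was 0.51, 0.28 and 0.23 for the 3051 genes of 40 to 45% GC and -1.91, -1.42 and -1.21 for the 3080 genes of 55 to 60% GC. Ox-mtDNA replicate 2 also differed from the others in cell type markers. The summed level of 8 B cell markers was 712 CPM there and 160 to 454 CPM in the other 8 libraries, and that of 14 pDC markers was 5145 CPM against 7438 to 13272 CPM. Not every marker followed its sum. Siglech, Bst2, Ly6c2, Ccr9, Tcf4, Klk1 and Cox6a2 were lowest in Ox-mtDNA replicate 2. Irf8, Spib, Runx2, Tlr9 and Pacsin1 were lowest in PBS replicate 3, Tlr7 in Ox-mtDNA replicate 1 and Ly6d in mtDNA replicate 3. Of the B cell markers, Cd79b and Cd22 were not highest in Ox-mtDNA replicate 2. No pDC marker was at 0 in all libraries. PBS replicate 3 stood apart in markers of monocytes and macrophages (1772 CPM in sum, against 454 to 886 CPM in the other 8 libraries) and of neutrophils (17.9 CPM against 1.54 to 6.52 CPM). It also held the highest level of Psmb8, Psmb10, Irf1 and Erap1 among the 9 libraries. The part of these differences in the results below was not tested. In RNA from a cell population, a change in the mixture of cells and a change per cell cannot be told apart.

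Across the 3 groups none of the 10 members differed between treatments past the threshold of an adjusted p of 0.05 (edgeR quasi-likelihood test, Benjamini-Hochberg over 17555 genes). The same was true of every gene tested: 0% passed in Ox-mtDNA against PBS, 0% in mtDNA against PBS and 0% in Ox-mtDNA against mtDNA. At an unadjusted p under 0.05, 1722, 460 and 422 genes were found in these 3 comparisons, and 1, 0 and 0 members, the one being Psmb10 after Ox-mtDNA. With the Wald test of DESeq2, 370, 14 and 1 genes passed, none of them a member. With the replicate number as a block, 1 gene passed in Ox-mtDNA against PBS, and again no member. The members did not move as 1 set. They fell into a light chain that hardly varied, heavy chains and a transporter whose spread between replicates exceeded any treatment difference, Psmb8 and Psmb9, which were low in 1 library, Psmb10, which was lower in all Ox-mtDNA libraries than in all PBS libraries, and Tap1, Tapbp and Nlrc5, which ranked Ox-mtDNA below PBS below mtDNA within replicates 1 and 2 only (for Tapbp and Nlrc5, with PBS and mtDNA overlapping). The spread between replicates exceeded any treatment difference for Tap1, Tapbp and Nlrc5 too. It was larger there than for the heavy chains and Tap2. Replicate 3 was 14.6- to 31.3-fold below the mean of replicates 1 and 2 for Tap1. For Tapbp it was 53.2- to 259-fold below, and for Nlrc5 4.94- to 18.7-fold. The plot of CPM by library shows these patterns.

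**Figure D1:**
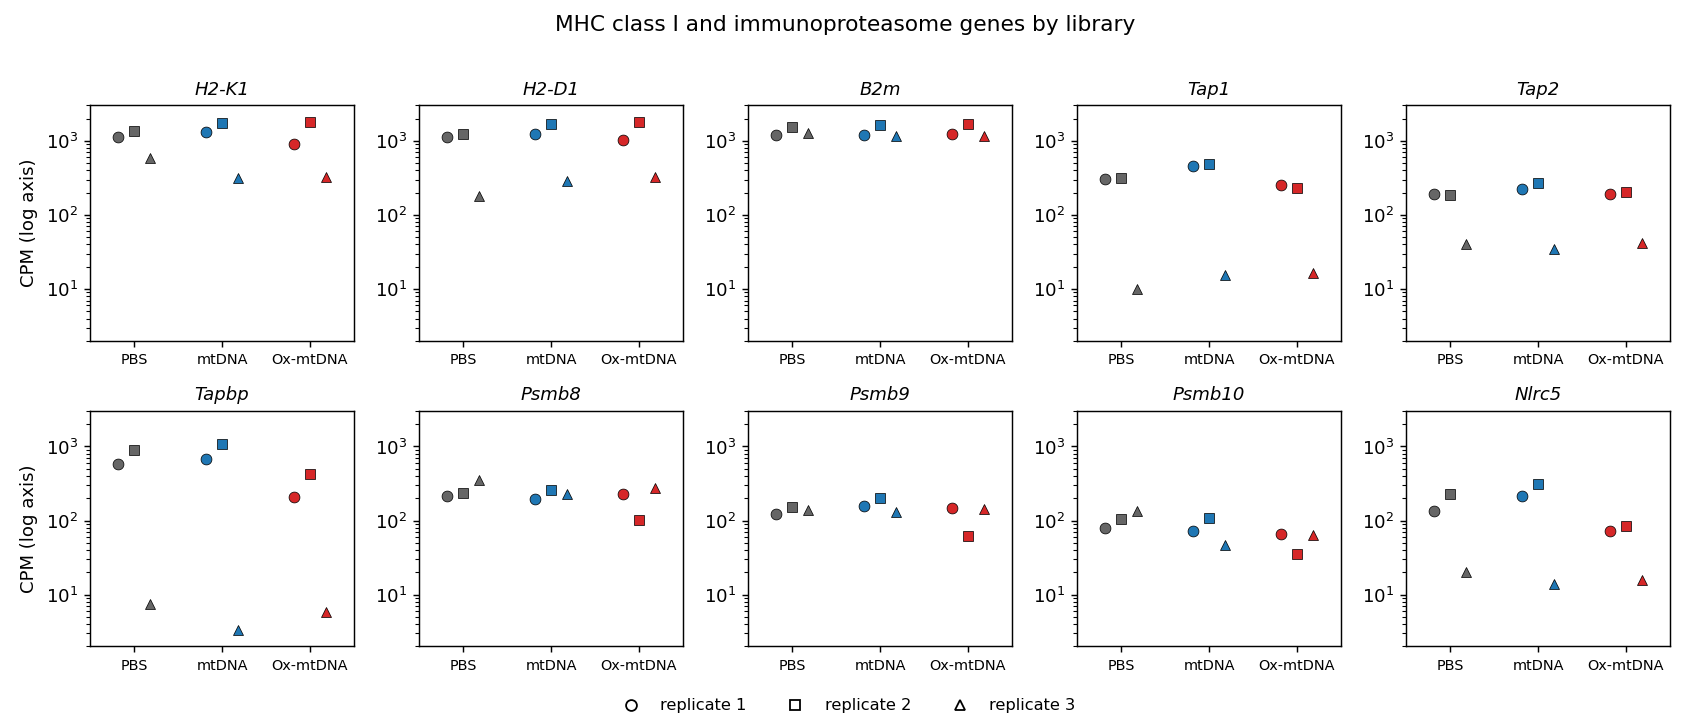
CPM (log axis) of the 10 members in each of the 9 libraries, by treatment, with circles, squares and triangles for replicates 1, 2 and 3. B2m stayed between 1164 and 1696 CPM in all libraries, whereas the triangles of Tap1, Tapbp and Nlrc5 lie far below the circles and squares in every treatment.

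The heavy and light chains were the most abundant members. B2m (chromosome 2, 121978167 to 121983564, GRCm39), the light chain shared by all class I molecules, was at 1215, 1544 and 1283 CPM in PBS replicates 1, 2 and 3. With mtDNA it was at 1203, 1631 and 1168 CPM, and with Ox-mtDNA at 1253, 1696 and 1164 CPM. The groups overlapped, and replicate 2 was the highest library of each. The log2 fold change was 0.03 (SE 0.26) for Ox-mtDNA against PBS and -0.01 (SE 0.26) for mtDNA against PBS, the smallest standard errors among the members. Both signs turned under other settings.

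H2-K1 (chromosome 17, 34214991 to 34219321), a classical heavy chain, was at 1122, 1342 and 584 CPM in PBS. It was at 1308, 1731 and 314 CPM after mtDNA and at 910, 1808 and 324 CPM after Ox-mtDNA. Replicate 3 was the lowest library of every group, and the groups overlapped. H2-D1 (chromosome 17, 35481706 to 35486475), the other classical heavy chain, was at 1140, 1233 and 181 CPM in PBS, 1230, 1688 and 284 CPM after mtDNA and 1036, 1820 and 325 CPM after Ox-mtDNA. The 6 libraries of replicates 1 and 2 had the same order for both heavy chains, with Ox-mtDNA replicate 2 the highest. For Ox-mtDNA against PBS the log2 fold change was -0.00 (SE 0.75) for H2-K1 and 0.32 (SE 0.91) for H2-D1. Over replicates 1 and 2 alone it was 0.15 (SE 0.35) and 0.27 (SE 0.31), so neither heavy chain was shown to differ. Fragments that aligned to several places were not counted, and the heavy chain genes have near-identical copies, so the levels of both are uncertain.

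Per kilobase of exon, B2m had the highest level of the set, at 1567 RPKM on average in PBS (range 1413 to 1796), followed by H2-K1 at 614 (353 to 811) and H2-D1 at 377 (80.3 to 546). Next stood Tapbp at 170 (2.62 to 305), Psmb8 at 164 (133 to 216), Psmb9 at 101 (90.1 to 112), Psmb10 at 81.5 (61.5 to 102), Tap1 at 71.3 (3.37 to 106) and Tap2 at 40.4 (11.6 to 54.99). Nlrc5, a regulator, was the lowest at 16.4 RPKM (2.58 to 29.3). B2m lay above every other member in all 3 PBS libraries. Of the other neighbours in this order only Psmb8 and Psmb9 had ranges that did not overlap. The order was not the same in all libraries. Over PBS replicates 1 and 2 Tapbp was at 253, Psmb8 at 138, Tap1 at 105, Psmb9 at 101 and Psmb10 at 71.4 RPKM. In PBS replicate 3 Psmb8 was at 216, Psmb10 and Psmb9 at 102, H2-D1 at 80.3, Tap2 at 11.6, Tap1 at 3.37 and Tapbp at 2.62 RPKM.

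Tap1 (chromosome 17, 34406527 to 34416199), a subunit of the peptide transporter, was at 310, 312 and 9.95 CPM in PBS. It was at 453, 493 and 15.6 CPM after mtDNA and at 251, 229 and 16.5 CPM after Ox-mtDNA. In replicates 1 and 2 both mtDNA libraries lay above both PBS libraries, and both Ox-mtDNA libraries lay below them. Replicate 3 had 262 to 319 counts and put PBS lowest. The log2 fold change over all libraries was 0.61 (SE 1.47) for mtDNA against PBS, -0.35 (SE 1.46) for Ox-mtDNA against PBS and -0.95 (SE 1.47) for Ox-mtDNA against mtDNA. Over replicates 1 and 2 the same values were 0.60 (SE 0.17), -0.37 (SE 0.17) and -0.97 (SE 0.18), with an edgeR adjusted p of 1.0, 0.383 and 0.137. The difference between the treated groups in replicate 3 was 0.08, against -0.85 and -1.11 in replicates 1 and 2. Against PBS, Tap1 after Ox-mtDNA was at -0.66 without Ox-mtDNA replicate 2 and at -0.92 without PBS replicate 3. The value after mtDNA was 0.043 without PBS replicate 3.

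Tap2 (chromosome 17, 34422501 to 34435295), the other subunit, was at 189, 188 and 39.97 CPM in PBS, 225, 269 and 35.2 CPM after mtDNA and 193, 205 and 41.4 CPM after Ox-mtDNA. Its values after Ox-mtDNA were close to those in PBS in each replicate, with differences of 0.02, 0.13 and 0.05 on the log2 scale. Its log2 fold change of Ox-mtDNA against PBS was 0.07 (SE 0.90), and over replicates 1 and 2 it was 0.08 (SE 0.19). Gm15821 shares 518 exon bases with Tap2, or 15.05% of its exon length, and fragments there were counted for both genes.

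Tapbp (chromosome 17, 34138306 to 34148266), which encodes tapasin, the bridge between the transporter and empty class I molecules, was at 584, 884 and 7.59 CPM in PBS. It was at 679, 1066 and 3.37 CPM after mtDNA and at 206, 420 and 5.88 CPM after Ox-mtDNA. Both Ox-mtDNA libraries of replicates 1 and 2 lay below all PBS and mtDNA libraries of those numbers, while PBS and mtDNA overlapped. In replicate 3 the gene had 62 to 200 counts, and the mean of replicates 1 and 2 was 96.7-, 259- and 53.2-fold higher in PBS, mtDNA and Ox-mtDNA. The log2 fold change of Ox-mtDNA against PBS was -1.22 (SE 1.96), and -1.23 (SE 0.43, edgeR adjusted p = 0.276) over replicates 1 and 2. Within replicates 1, 2 and 3 the difference was -1.50, -1.07 and -0.37. The log2 fold change was -2.22 without Ox-mtDNA replicate 2 and -1.81 without PBS replicate 3. The antisense gene Gm19412 shares 28.0% of the exon length of Tapbp, and since strand was not used its reads cannot be told apart from those of Tapbp there.

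Nlrc5 (chromosome 8, 95161019 to 95253900), the class I transactivator, was at 133, 228 and 20.04 CPM in PBS. It was at 214, 314 and 14.1 CPM after mtDNA and at 72.8, 84.6 and 15.9 CPM after Ox-mtDNA. In replicates 1 and 2 the Ox-mtDNA libraries were the lowest, and PBS and mtDNA overlapped. The log2 fold change was -1.14 (SE 1.16) for Ox-mtDNA against PBS, 0.51 (SE 1.15) for mtDNA against PBS and -1.65 (SE 1.18) for Ox-mtDNA against mtDNA. Over replicates 1 and 2 it was -1.19 (SE 0.34, edgeR adjusted p = 0.216), 0.55 (SE 0.33) and -1.74 (SE 0.34, adjusted p = 0.161). Within replicates 1, 2 and 3 the difference between Ox-mtDNA and PBS was -0.87, -1.43 and -0.33, and that between Ox-mtDNA and mtDNA was -1.56, -1.89 and 0.17. Against PBS it was -1.53 without Ox-mtDNA replicate 2 and -1.65 without PBS replicate 3.

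**Figure D2:**
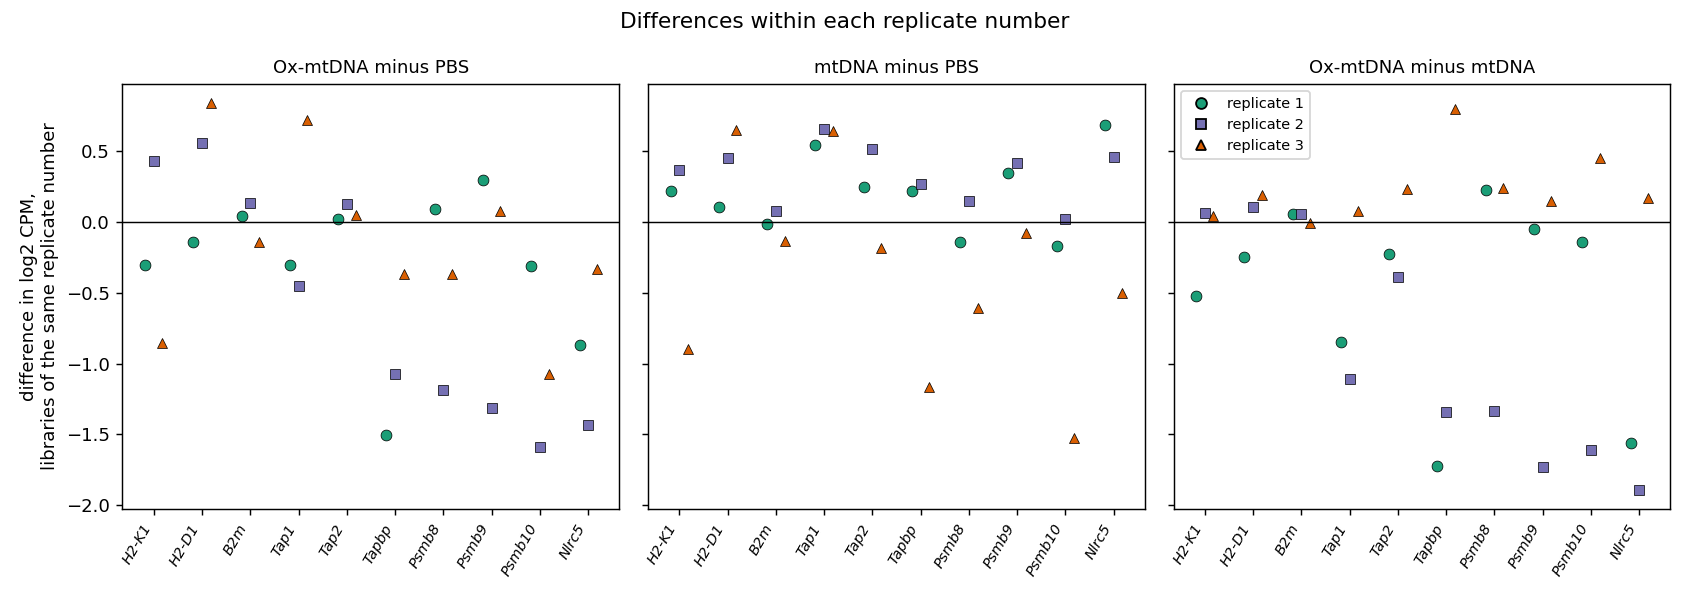
Differences in log2 CPM between libraries of the same replicate number, in 3 panels for the 3 comparisons, with circles, squares and triangles for replicates 1, 2 and 3. Tapbp, Psmb10 and Nlrc5 lie below 0 in all 3 replicates of Ox-mtDNA minus PBS, and the triangles of Ox-mtDNA minus mtDNA lie near or above 0 for every member.

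The immunoproteasome subunits had another pattern. Psmb8 (chromosome 17, 34416764 to 34420428), which takes the place of Psmb5, was at 216, 234 and 352 CPM in PBS and at 197, 260 and 231 CPM after mtDNA. After Ox-mtDNA it was at 230, 103 and 273 CPM, with replicate 2 the lowest of the 9 libraries. The antisense gene Gm20496 shares 186 exon bases with Psmb8, or 11.4% of its exon length, and fragments there were counted for both genes. Psmb9 (chromosome 17, 34400961 to 34406738), which takes the place of Psmb6, was at 122, 151 and 137 CPM in PBS, 155, 203 and 130 CPM after mtDNA and 150, 61.1 and 145 CPM after Ox-mtDNA. It too was lowest in Ox-mtDNA replicate 2. Against PBS the log2 fold change of Ox-mtDNA was -0.40 (SE 0.38) for Psmb8 and -0.21 (SE 0.37) for Psmb9. Without Ox-mtDNA replicate 2 these values were -0.10 and 0.09, and without PBS replicate 3 they were -0.17 and -0.22. That library is the 1 with the highest summed B cell and lowest summed pDC marker level, though not for every marker. The part of the marker difference was not tested.

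Psmb10 (chromosome 8, 106662371 to 106665076), which takes the place of Psmb7, was at 80.6, 107 and 134 CPM in PBS, 71.7, 108 and 46.5 CPM after mtDNA and 65.01, 35.4 and 63.6 CPM after Ox-mtDNA. All 3 Ox-mtDNA libraries lay below all 3 PBS libraries. Psmb10 was the only member whose groups did not overlap in this way in that comparison, where 8.08% of all genes were lower and 7.39% higher without overlap. The log2 fold change was -0.97 (SE 0.40, unadjusted p = 0.0393, edgeR adjusted p = 0.486). Within replicates 1, 2 and 3 the difference was -0.31, -1.59 and -1.07, and without Ox-mtDNA replicate 2 the log2 fold change was -0.75 (edgeR adjusted p = 0.520). Without PBS replicate 3 it was -0.79. Unlike Tapbp, which has nearly the same GC content, Psmb10 was not low in replicate 3 of PBS or Ox-mtDNA.

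Whether the immunoproteasome subunits changed in proportion to the constitutive ones was asked with the ratio of counts per exon base in each library. Psmb10/Psmb7 was 0.769, 1.05 and 0.776 in PBS, 0.777, 1.13 and 0.305 with mtDNA and 0.600, 0.294 and 0.389 with Ox-mtDNA. The Ox-mtDNA ratios were all below the PBS ratios, and mtDNA replicate 3 was in the range of Ox-mtDNA. The mean log2 ratio was -0.22 ± 0.26 (SD, n = 3) in PBS and -1.29 ± 0.52 (SD, n = 3) after Ox-mtDNA, a difference of -1.07 (exact two-sided permutation p = 0.1, the smallest that 3 against 3 libraries can give, and 0.675 after adjustment over the 9 ratio tests). Psmb8/Psmb5 was 1.47, 1.78 and 1.75 in PBS, 1.59, 2.03 and 2.04 with mtDNA and 1.98, 0.678 and 2.08 with Ox-mtDNA. Psmb9/Psmb6 was 0.783, 1.11 and 0.619 in PBS, 1.19, 1.40 and 0.626 with mtDNA and 1.05, 0.260 and 0.671 with Ox-mtDNA. For these pairs Ox-mtDNA replicate 2 was the lowest library and the groups overlapped. Within replicates 1, 2 and 3 the log2 ratio after mtDNA minus that in PBS was 0.11, 0.19 and 0.22 for Psmb8/Psmb5 and 0.61, 0.33 and 0.016 for Psmb9/Psmb6 (exact two-sided sign-flip permutation p = 0.25 for each, the smallest that 3 pairs can give). The same sign-flip p of 0.25 was found for Psmb10/Psmb7 in Ox-mtDNA against PBS, and it was 0.5 or more in the remaining ratio tests. The labels do not say that the replicate numbers pair the libraries, so nothing is drawn from these p-values. A ratio shows unequal change, not which gene changed. In log2 CPM Psmb8 itself differed by -0.14, 0.15 and -0.60 and Psmb9 by 0.35, 0.42 and -0.07. Psmb5 was lower in all mtDNA libraries than in all PBS libraries, as were 4.96% of all genes. Without Ox-mtDNA replicate 2 the difference between Ox-mtDNA and PBS was 0.29 for Psmb8/Psmb5, 0.046 for Psmb9/Psmb6 and -0.83 for Psmb10/Psmb7. The exact two-sided permutation p lay between 0.3 and 1.0 for the 8 tests other than Psmb10/Psmb7 in Ox-mtDNA against PBS.

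**Figure D3:**
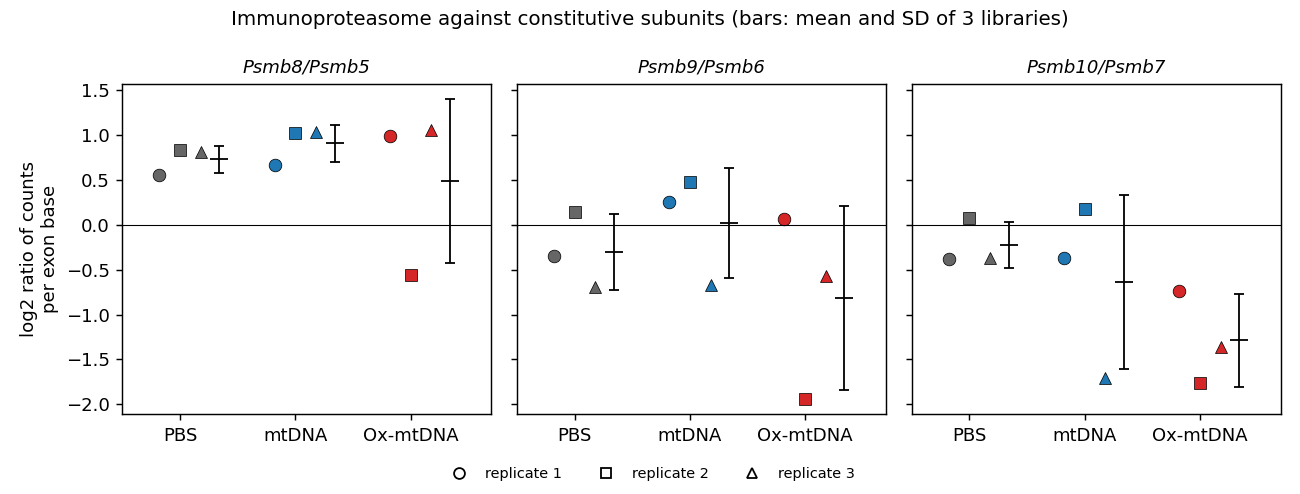
Log2 ratio of counts per exon base of each immunoproteasome subunit to the constitutive subunit it replaces, by treatment, with symbols for the 3 replicates and bars for the mean and SD of 3 libraries. The square of Ox-mtDNA (replicate 2) lies below all other libraries in each panel, and the 3 Ox-mtDNA points of Psmb10/Psmb7 lie below the PBS points.

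Read as a set, the members had medians of opposite sign after the 2 kinds of DNA over all libraries, without a call. The median log2 fold change of the 10 was -0.28 for Ox-mtDNA against PBS (all tested genes 0.06), with 7 negative and 3 positive. It was 0.25 for mtDNA against PBS (all genes 0.02), with 3 negative and 7 positive, and -0.36 for Ox-mtDNA against mtDNA (all genes 0.04), with 9 negative and 1 positive. The comparisons share libraries, so these medians are not independent. The replicates differed. For Ox-mtDNA against PBS the median difference was -0.22, -0.76 and -0.24 in replicates 1, 2 and 3, and 6 of 10 members were lower in each (49.8%, 49.6% and 44.7% of all genes). For mtDNA against PBS it was 0.22, 0.39 and -0.34, with 3, 0 and 8 members lower (49.7%, 49% and 47% of all genes), so in replicate 3 the median was negative after both kinds of DNA. For Ox-mtDNA against mtDNA it was -0.24, -1.22 and 0.18, with 8, 7 and 1 members lower (50%, 50.5% and 42.5% of all genes).

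Members whose groups did not overlap were few over all libraries and more in replicates 1 and 2. The same was true of all genes, since groups of fewer libraries separate more easily, so this rise is not particular to the members. Over 3 against 3 libraries no member was without overlap in mtDNA against PBS (4.96% of all genes lower, 5.58% higher) or in Ox-mtDNA against mtDNA (2.79% lower, 2.04% higher). Over replicates 1 and 2 alone, Tap1, Tapbp, Psmb10 and Nlrc5 were lower after Ox-mtDNA than in PBS (4 of 10 members, 21.5% of all genes) and Tap2 was higher (1 of 10, 21% of all genes). After mtDNA, Tap1, Tap2 and Psmb9 lay above PBS (3 of 10, 24.1% of all genes) and no member lay below it (22.7% of all genes). Between Ox-mtDNA and mtDNA, Tap1, Tap2, Tapbp, Psmb9, Psmb10 and Nlrc5 were lower (6 of 10, 21.8% of all genes) and none was higher (20.4% of all genes).

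Replicate 3 split the set in much the same way in all 3 treatments. B2m, of 41.2% GC and 860 exon bases, differed by only -0.09, -0.26 and -0.32 on the log2 scale between replicate 3 and the mean of replicates 1 and 2 in PBS, mtDNA and Ox-mtDNA. Psmb8, Psmb9 and Psmb10, of 1311 to 1628 exon bases, differed by -0.92 to 0.82. H2-K1 (1655 bases) differed by -1.07, -2.26 and -1.99, and H2-D1 (2256 bases) by -2.71, -2.34 and -2.08. Tap2 (57.9% GC, 3442 bases) differed by -2.24, -2.80 and -2.26, Nlrc5 (52.4% GC, 7769 bases) by -3.12, -4.20 and -2.30 and Tap1 (55.8% GC, 2953 bases) by -4.96, -4.92 and -3.86. Tapbp (58.4% GC, 2898 bases) differed by -6.56, -7.97 and -5.64. The direction held in all 3 treatments for each of these 6 longest members.

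Exon length went with the replicate 3 difference among GC-rich genes as a whole. For genes of 55 to 60% GC the median differences in PBS, mtDNA and Ox-mtDNA were 0.11, 0.03 and 0.16 at 500 to 1500 exon bases (665 genes). At 1500 to 3000 bases they were -1.55, -1.19 and -0.95 (1084 genes), and at 3000 to 10000 bases -3.83, -3.28 and -2.79 (1116 genes). Psmb10, of 58.3% GC and 1311 bases, falls in the first of these classes. Tapbp and Tap1 fall in the second, and both lay far below its medians in every group. The class of Nlrc5 (50 to 55% GC, 3000 to 10000 bases, 1793 genes) had medians of -0.71, -0.58 and -0.38, so Nlrc5 too lay below genes of like GC content and length. For genes of 40 to 45% GC and 500 to 1500 bases, the class of B2m, the medians were 0.57, 0.50 and 0.46, and at 3000 to 10000 bases they were 0.49, 0.20 and 0.14. Among the members length did not set the order, since Nlrc5 and Tap2 are longer than Tap1 and Tapbp and differed less. The part of GC content and length in the low replicate 3 levels was not tested.

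**Figure D4:**
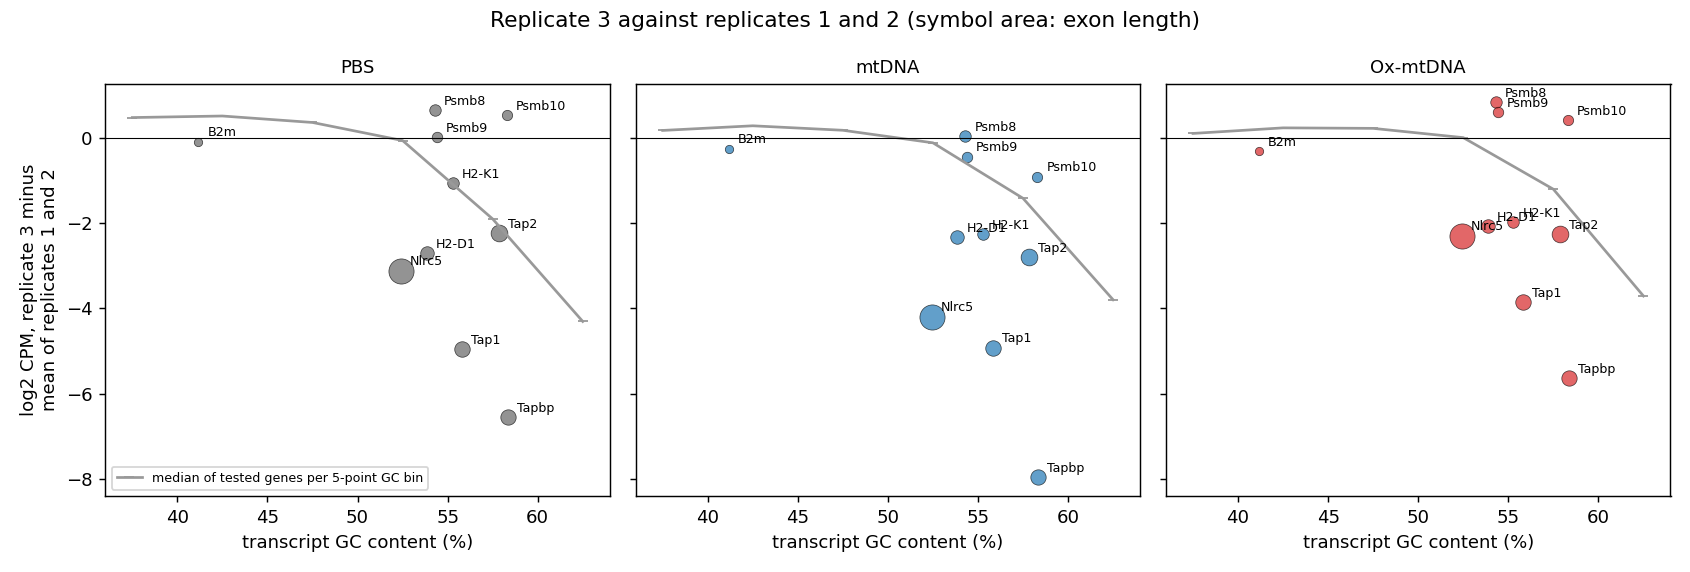
Difference in log2 CPM between replicate 3 and the mean of replicates 1 and 2 against transcript GC content, in 3 panels for the 3 treatments; symbol area is exon length and the grey line is the median of the tested genes in each 5-point GC bin. B2m and the 3 Psmb genes lie near 0 or above the line, and Tapbp, Tap1 and Nlrc5 lie below it in all treatments.

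Psmb9 and Tap1, which share the short stretch between their RefSeq start sites printed above, had different values across the libraries. In replicate 3 Tap1 was 14.6- to 31.3-fold lower than in replicates 1 and 2, while Psmb9 was at 130 to 145 CPM, within its range in the other libraries. In Ox-mtDNA replicate 2 Psmb9 was at its lowest, and Tap1 was at 229 CPM, close to the 251 CPM of Ox-mtDNA replicate 1. In the annotation of the counts the exons of these genes overlap by 212 bases, or 15.7% of Psmb9 and 7.18% of Tap1. These genes thus also share some counted fragments. The closest pair among the members, by the root mean square difference of centred log2 CPM over the 9 libraries, was Psmb8 and Psmb9 (0.29), followed by H2-D1 and Tap2 (0.30). These distances describe 9 libraries in which replicate 3 dominates the spread.

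Genes most like 3 of the members were taken from the 9925 genes with a mean log2 CPM of at least 3 by the same distance. Those most like Nlrc5 were 4932422M17Rik (0.25), H2-T24 (0.34), Plxnc1 (0.34), Usp25 (0.35) and Mgat1 (0.36). H2-T24, a non-classical heavy chain, was at 63.5, 137 and 12.1 CPM in PBS, 86.7, 115 and 6.58 CPM after mtDNA and 36.5, 23.01 and 7.07 CPM after Ox-mtDNA. Those most like Psmb9 were Nsmaf (0.11), Uvssa (0.12), H2-DMb1 (0.12), Fam122b (0.16) and Rpgrip1 (0.17). Their low level in Ox-mtDNA replicate 2 follows from the choice. H2-DMb1, a chaperone of MHC class II loading, was at 71.0 CPM there and at 137 to 194 CPM elsewhere. Those most like B2m were Usp54 (0.12), Ntmt1 (0.13), Nrbp1 (0.13), Fbxo6 (0.14) and Mkrn1 (0.14).

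Other genes of the pathway gave no call with edgeR in any comparison either, and with DESeq2 Erap1 and Prdm1 passed for Ox-mtDNA against PBS. Of 16 other heavy chain genes 10 were tested, of 16 further processing and loading genes all 16, of 3 constitutive subunits all 3, and of 19 regulators all 19. Among the heavy chains, 7 of 10 were negative after Ox-mtDNA against PBS, with a median of -0.29. H2-T22 was at 82.2, 101 and 89.9 CPM in PBS and 72.9, 50.2 and 52.0 CPM after Ox-mtDNA, with no overlap, and had a log2 fold change of -0.64 (SE 0.33), or -0.57 over replicates 1 and 2. H2-T23, which encodes the Qa-1 molecule that presents class I leader peptides, was at 553, 813 and 664 CPM in PBS and 520, 377 and 498 CPM after Ox-mtDNA (-0.54, SE 0.32, and -0.60 over replicates 1 and 2). For mtDNA against PBS the smallest p-values were those of H2-M3, which presents formylated peptides (0.22, SE 0.32), and H2-Q7 (0.65, SE 0.96). For Ox-mtDNA against mtDNA they were those of H2-T22 (-0.74, SE 0.33) and H2-T24 (-1.65, SE 1.14).

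Of the processing and loading genes, 10 of 16 were negative after Ox-mtDNA against PBS, with a median of -0.11. Erap1, which trims peptides in the endoplasmic reticulum, was at 117, 129 and 193 CPM in PBS, 106, 122 and 87.1 CPM after mtDNA and 76.4, 68.5 and 69.8 CPM after Ox-mtDNA. Its Ox-mtDNA libraries lay below all other libraries, and the log2 fold change against PBS was -1.03 (SE 0.27, edgeR adjusted p = 0.472, DESeq2 adjusted p = 0.0315). It was -0.76 over replicates 1 and 2, -1.02 without Ox-mtDNA replicate 2 and -0.80 without PBS replicate 3. Lnpep, an aminopeptidase of endosomes that trims peptides for cross-presentation, was at 389, 375 and 385 CPM in PBS and 214, 277 and 260 CPM after Ox-mtDNA. Its log2 fold change was -0.62 (SE 0.22, edgeR adjusted p = 0.472) against PBS and -0.62 (SE 0.22) against mtDNA, or -0.63 and -0.75 over replicates 1 and 2. Tapbpl, a tapasin-like peptide editor, was at -0.95 (SE 0.38) for Ox-mtDNA against mtDNA, or -1.30 over replicates 1 and 2. For mtDNA against PBS the smallest p-values were those of Erap1 (-0.48, SE 0.27) and Pdia3, a disulfide isomerase of the loading complex (-0.23, SE 0.21).

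Psme1 and Psme2, which encode the PA28 activator of the proteasome, had log2 fold changes of 0.01 (SE 0.39) and -0.57 (SE 0.31) for Ox-mtDNA against PBS. For mtDNA against PBS they were -0.04 (SE 0.39) and -0.25 (SE 0.31), and for Ox-mtDNA against mtDNA 0.06 (SE 0.39) and -0.32 (SE 0.31). Like the immunoproteasome subunits, both were lowest in Ox-mtDNA replicate 2, at 121 and 91.0 CPM. The constitutive subunits Psmb5, Psmb6 and Psmb7 had log2 fold changes of -0.26 (SE 0.25), 0.21 (SE 0.32) and 0.05 (SE 0.33) for Ox-mtDNA against PBS. They were -0.39 (SE 0.25), -0.09 (SE 0.32) and -0.15 (SE 0.33) for mtDNA against PBS and 0.13 (SE 0.25), 0.30 (SE 0.32) and 0.20 (SE 0.33) for Ox-mtDNA against mtDNA. In Ox-mtDNA replicate 2 they were at 84.1, 138 and 107 CPM and were not the lowest library of the group.

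Among the 19 regulators, 13 were negative and 6 positive for Ox-mtDNA against PBS, and 7 had an unadjusted p under 0.05, where 9.81% of all tested genes had one. The list was chosen with earlier results of these data known, so nothing is drawn from these counts. Irf1, an interferon-induced factor that acts on class I and immunoproteasome promoters, was at 249, 314 and 389 CPM in PBS, 241, 302 and 243 CPM after mtDNA and 198, 153 and 120 CPM after Ox-mtDNA. Its Ox-mtDNA libraries were the lowest 3 of the 9, with log2 fold changes of -1.01 (SE 0.28, edgeR adjusted p = 0.472) against PBS and -0.74 (SE 0.28) against mtDNA. Over replicates 1 and 2 they were -0.68 and -0.62, and against PBS the value was -1.005 without Ox-mtDNA replicate 2 and -0.85 without PBS replicate 3.

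Prdm1, a repressor that competes for IRF-type sites, was at 10.6, 5.57 and 6.38 CPM in PBS, 13.1, 11.7 and 44.6 CPM after mtDNA and 18.2, 48.6 and 44.0 CPM after Ox-mtDNA. Both treated groups lay above PBS in every library, with log2 fold changes of 2.30 (SE 0.64, edgeR adjusted p = 0.472) after Ox-mtDNA and 1.62 (SE 0.63, adjusted p = 1.0) after mtDNA. Over replicates 1 and 2 these values were 2.05 and 0.62. The DESeq2 adjusted p of Prdm1 was 0.0421 for Ox-mtDNA against PBS. Rfxank, a subunit of the factor that binds the X box, had a log2 fold change of -0.33 (SE 0.24) for mtDNA against PBS, and Irf1 one of -0.28 (SE 0.28).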

How the data were processed

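The values deposited by the authors were raw counts, not normalized. The tools were fastp 0.23.4, STAR 2.7.11b and featureCounts 2.0.1 with GRCm39, per the submitters' processing notes. Per the file headers, fragments were counted over exons without strand, once for each gene they overlapped, and those with several alignments were not counted. Genes were matched to symbols (51884 of 57126), and 19757 had no count.

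Low genes were dropped by filterByExpr (edgeR 4.0.16, R 4.3.3, minimum count 10). A robust quasi-likelihood model with TMM factors then covered all 9 libraries, with 6 degrees of freedom left. P-values were adjusted over the 17555 tested genes. RPKM is CPM per kilobase of exon. Log2 CPM used a prior count of 0.5. The steps were run on simulated counts with the same spread for every gene and without the replicate differences seen here. That run therefore does not show how the fit behaves on these libraries. Depth was 16029951 to 25378884 counts, and replicates of a group differed by 17.0 to 398 times counting error, as chi-square per degree of freedom. DESeq2 1.42.0, limma 3.58.1 (voom), other scalings, no filter, fewer libraries and blocks were alternatives.

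Named genes were the 10 members, Psmb5, Psmb6, Psmb7, Irf1, Psme1 and Psme2, the genes called in each list of related genes (or else the 2 with the smallest p), and the 5 genes most like Nlrc5, Psmb9 and B2m. 1 other gene that the rule names is not reported here. Members and lists were chosen with earlier results of these data known. Libraries of the same number deviated together from their group means (correlations of 0.48 to 0.89), so the replicate number was used as a block in 1 alternative. The correlation of PBS replicate 2 with Ox-mtDNA replicate 1 (0.60) was above that with replicate 2 (0.48), and the numbers mainly set replicate 3 apart. All 9 columns of counts were used.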

Additional observations from a re-analysis of the deposited data

How the results depend on the processing

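No member passed the threshold under any setting run. Genes called in Ox-mtDNA against PBS moved from 0 to 370 with DESeq2 (260 higher, 110 lower), 1 with the replicate block and 25 over replicates 1 and 2 only. DESeq2 also called 14 genes in mtDNA against PBS and 1 in Ox-mtDNA against mtDNA. The pairing by replicate block changed no other call, nor did replicates 1 and 2 with the block, chosen after seeing the data (0 genes). The causes were not tested. Log2 values that changed sign were close to 0 or had a large standard error. For Ox-mtDNA against PBS these were H2-K1 (0.0093 upper quartile, 0.15 replicates 1 and 2, 0.079 with the block too), B2m (-0.063 no filter), Psmb7 (-0.042 no filter), Tap1 (0.0090 replicate block) and Psme1 (-0.10 voom, -0.066 no filter, -0.050 replicate block, -0.20 replicates 1 and 2, -0.23 with the block too). For mtDNA against PBS they were B2m (0.0085 upper quartile, 0.030 the 6 libraries only, 0.036 replicates 1 and 2, 0.030 with the block too), H2-K1 (-0.10 voom, -0.12 replicate block), Tapbp (-0.21 voom, -0.083 replicate block), Psme1 (0.018 the 6 libraries), Psme2 (0.034 replicates 1 and 2, 0.035 with the block too) and Psmb8 (0.017 replicates 1 and 2, 0.027 with the block too). For Ox-mtDNA against mtDNA they were H2-D1 (0.0071 upper quartile, 0.018 voom, 0.0012 the 6 libraries, 0.032 replicate block) and Psme1 (-0.048 voom, -0.097 replicates 1 and 2, -0.13 with the block too). The Psmb10/Psmb7 difference in mtDNA against PBS was 0.055 over replicates 1 and 2.

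Leaving out 1 library at a time left 0 genes called and turned other signs. For Ox-mtDNA against PBS the ranges were B2m -0.17 to 0.12, H2-D1 -0.33 to 0.73, H2-K1 -0.73 to 0.39, Psmb7 -0.21 to 0.33, Psmb9 -0.43 to 0.093, Psme1 -0.39 to 0.32, Tap1 -0.92 to 0.18 and Tap2 -0.38 to 0.49. For Ox-mtDNA against mtDNA they were B2m -0.15 to 0.21, H2-D1 -0.66 to 0.48, H2-K1 -0.87 to 0.32, Psmb7 -0.042 to 0.52, Psmb8 -0.50 to 0.13, Psme1 -0.34 to 0.37 and Tap2 -0.74 to 0.17. For mtDNA against PBS they were B2m -0.20 to 0.086, H2-D1 -0.17 to 0.76, H2-K1 -0.33 to 0.54, Nlrc5 -0.15 to 1.24, Psmb6 -0.39 to 0.13, Psmb7 -0.49 to 0.13, Psmb8 -0.36 to 0.017, Psme1 -0.29 to 0.091, Tap2 -0.10 to 0.80 and Tapbp -0.53 to 0.97. Ratio differences ranged from -0.81 to 0.13 for Psmb10/Psmb7 (mtDNA against PBS), -0.52 to 0.29 and -0.69 to 0.11 for Psmb8/Psmb5 (Ox-mtDNA against PBS and mtDNA) and -0.96 to 0.046 for Psmb9/Psmb6 (Ox-mtDNA against PBS). Nlrc5, Tapbp, Psmb8 and Psmb10 were negative for Ox-mtDNA against PBS under every setting run, from -1.65 to -0.42, -2.22 to -0.50, -0.75 to -0.10 and -1.15 to -0.75.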
